A study of Mus musculus with 8 samples.

Results

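The 9 genes described here encode transcription factors that mark classes of spinal interneurons: Lhx1, Lhx5, Lhx9, En1, Evx1, Sim1, Lbx1, Pou4f1 and Tlx3. They were taken by symbol from a table of 36808 genes, and each symbol matched 1 row. The table gives FPKM, a level per length of transcript and per depth of library, in mouse embryonic stem cells (ESCs) and in cells at day 5 of directed differentiation to spinal motor neurons (SMNs). The study asked how Polycomb Repressive Complex 2 (PRC2), the enzyme complex that methylates lysine 27 of histone H3, acts on gene expression before and after cells commit to a lineage. The ESC libraries were wild-type E14 (129/Ola background), wild-type CJ7 (129/S), Suz12delta (C57/BL6) and Eednull (BALB/cR1). The day 5 libraries were wild-type E14, Suz12GT (129/Ola), Suz12delta and Eednull. Suz12GT is a gene trap allele that fuses part of SUZ12 to beta-galactosidase, Suz12delta encodes a truncated SUZ12, and Eednull carries a point mutation in Eed; Suz12delta and Eednull are called the null lines here. The study grew ESCs on irradiated mouse fibroblast feeders, which were removed by plating. Its list of the lines grown in this way does not name CJ7. All day 5 cells had been without LIF and had received retinoic acid and a Hedgehog agonist. Each condition had 1 library and each mutant is 1 line, so no value below has a replicate check, and genotype, line and strain background cannot be told apart, except that Suz12GT shares the background of E14.

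In the developing spinal cord, morphogens divide the progenitors along the dorsal to ventral axis into domains, and each domain gives rise to a class of neurons with its own set of homeodomain or basic helix-loop-helix factors. Sonic hedgehog from the floor plate favours the ventral classes, among which motor neurons arise beside interneurons. PRC2 is known for silencing genes of this kind in ESCs, mostly at promoters rich in CpG dinucleotides. Several of the 9 genes also act elsewhere: Lhx9 in gonad and limb, Lbx1 in migrating limb muscle precursors, En1 at the midbrain to hindbrain border, Evx1 in the primitive streak, and Pou4f1 and Tlx3 in peripheral sensory neurons.

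The sequences upstream of the genes are shown for 4 factors that the results turn on, because CpG content is the feature for which PRC2 target promoters are known. Each is the 250 bases before the RefSeq start (table of build GRCm38.p6), written 5′ to 3′ on the gene's strand, with every CG in capitals, and was placed on NCBI build 37 by an exact and unique match. Lhx1 lies at chr11:84339037-84339286 (minus strand), Evx1 at chr6:52263242-52263491 (plus strand), Pou4f1 at chr14:104867217-104867466 (minus strand) and Tlx3 at chr11:33103589-33103838 (minus strand).
Lhx1: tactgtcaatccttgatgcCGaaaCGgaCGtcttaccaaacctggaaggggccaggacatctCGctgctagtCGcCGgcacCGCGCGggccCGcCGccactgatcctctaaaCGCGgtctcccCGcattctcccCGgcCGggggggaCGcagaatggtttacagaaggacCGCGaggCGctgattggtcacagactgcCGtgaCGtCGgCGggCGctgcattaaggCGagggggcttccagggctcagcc
Evx1: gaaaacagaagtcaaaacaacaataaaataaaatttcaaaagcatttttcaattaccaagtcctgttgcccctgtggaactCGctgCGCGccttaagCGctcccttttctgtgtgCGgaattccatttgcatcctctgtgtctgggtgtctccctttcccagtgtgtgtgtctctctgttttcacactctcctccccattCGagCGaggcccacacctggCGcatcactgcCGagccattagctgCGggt
Pou4f1: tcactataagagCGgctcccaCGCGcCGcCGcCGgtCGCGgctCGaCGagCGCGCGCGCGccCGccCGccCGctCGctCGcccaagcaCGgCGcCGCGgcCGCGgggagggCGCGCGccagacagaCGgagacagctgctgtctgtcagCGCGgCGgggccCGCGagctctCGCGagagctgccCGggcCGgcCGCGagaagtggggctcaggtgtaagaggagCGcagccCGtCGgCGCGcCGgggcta
Tlx3: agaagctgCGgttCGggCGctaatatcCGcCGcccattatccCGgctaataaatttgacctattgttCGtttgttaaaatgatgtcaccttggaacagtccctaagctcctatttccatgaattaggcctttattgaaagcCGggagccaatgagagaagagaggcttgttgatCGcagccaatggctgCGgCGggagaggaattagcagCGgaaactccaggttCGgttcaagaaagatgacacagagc

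The table of promoters held 7 of the 9 factors and not Lhx5 or Lbx1. Pou4f1 had 47 CpG sites in its 250 bases, more than 99.8% of the 32851 RefSeq promoters, and Lhx1 had 26, more than 90.4%. En1 had 19, Tlx3 13, Sim1 11 and Evx1 10 CpG sites, which placed them above 80.3%, 68.5%, 64.4% and 62.2% of promoters. The median of the 7 was 13 sites with an observed to expected ratio of 0.88, beside 6 sites and 0.37 over all promoters, whose quartiles were 2 and 16 sites. Lhx9 stood apart from the other 6 with 4 sites and a ratio of 0.22, and 62.2% of all promoters held at least 4. Its RefSeq start lies inside the gene, 6132 bases from the 5′ end that GENCODE gives. CG reads the same on both strands, and its presence in these windows is a description of sequence only.

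**Figure D1:**
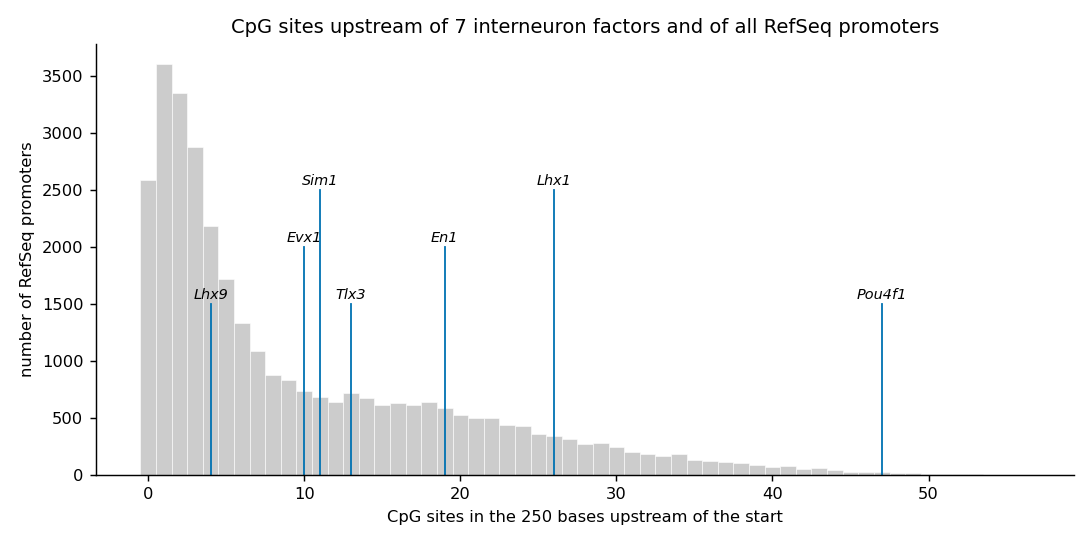
Number of RefSeq promoters (vertical axis) by the number of CpG sites in the 250 bases upstream of the start (horizontal axis), with lines at the counts of 7 interneuron factors (line height carries no value). Pou4f1 at 47 and Lhx1 at 26 sites lie in the upper tail, and Lhx9 at 4 lies among the promoters with few sites.

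At Lhx9 the study placed a pair of ChIP primers, which mark the part of the gene where the authors looked for histone methylation. On NCBI build 37 they span chr1:140745378-140745565, 188 bases whose centre is 318 bases upstream of the annotated 5′ end and which overlap no exon of the 6 annotated transcripts. The ChIP measurements were not analysed here.
Lhx9 forward primer: ttagcggctccttgacttgg
Lhx9 reverse primer: tggagggctcggattcacta

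Sums of FPKM ranged from 389165 to 797748 per library, and the number of reads behind them is unknown. Between 38.2% and 42.0% of all genes reached 1 FPKM in a library, and between 1 and 4 of the 9 factors did. A value of 0 is reported as listed at 0, since each library had 0 to 5 genes at 0 that all other libraries held at 10 FPKM or above, and Tubb3, a pan-neuronal tubulin, was listed at 0 in all 8. Suz12 was at 41.3 FPKM in E14, 53.1 in CJ7, 6.21 in Suz12delta and 35.7 in Eednull ESCs, and at day 5 at 16.2 in E14, 10.3 in Suz12GT, 11.6 in Suz12delta and 17.6 in Eednull cells. A gene trap fusion, a truncation and a point mutation can all leave RNA of the gene, so these levels do not check the alleles. The Suz12delta ESC library stood apart from the other ESC libraries: 8 pluripotency genes summed to 506 FPKM there and to between 899 and 1153 in the others, while 12 fibroblast genes summed to 764 FPKM, against 134 in E14, 145 in CJ7 and 361 in Eednull ESCs. None of those 12 was listed at 0 in any ESC library. The label of CJ7 says that it was prepared and sequenced with a library whose code, ST20, opens the column name of Eednull ESCs, so Eednull is set against both wild-type lines below.

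Most levels of the 9 factors were low. Only Lhx1, Lhx9, En1, Pou4f1 and Tlx3 reached 1 FPKM in any library, and the highest value of all was 8.26 FPKM for Pou4f1 in Suz12GT cells at day 5. The median of the 9 was 0.105 FPKM in E14, 0.211 in CJ7, 0.218 in Suz12delta and 0.737 in Eednull ESCs, and 0.153, 0.482, 0.485 and 0.509 FPKM in E14, Suz12GT, Suz12delta and Eednull cells at day 5. In bulk RNA, fewer cells of a class and less RNA per cell cannot be told apart.

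**Figure D2:**
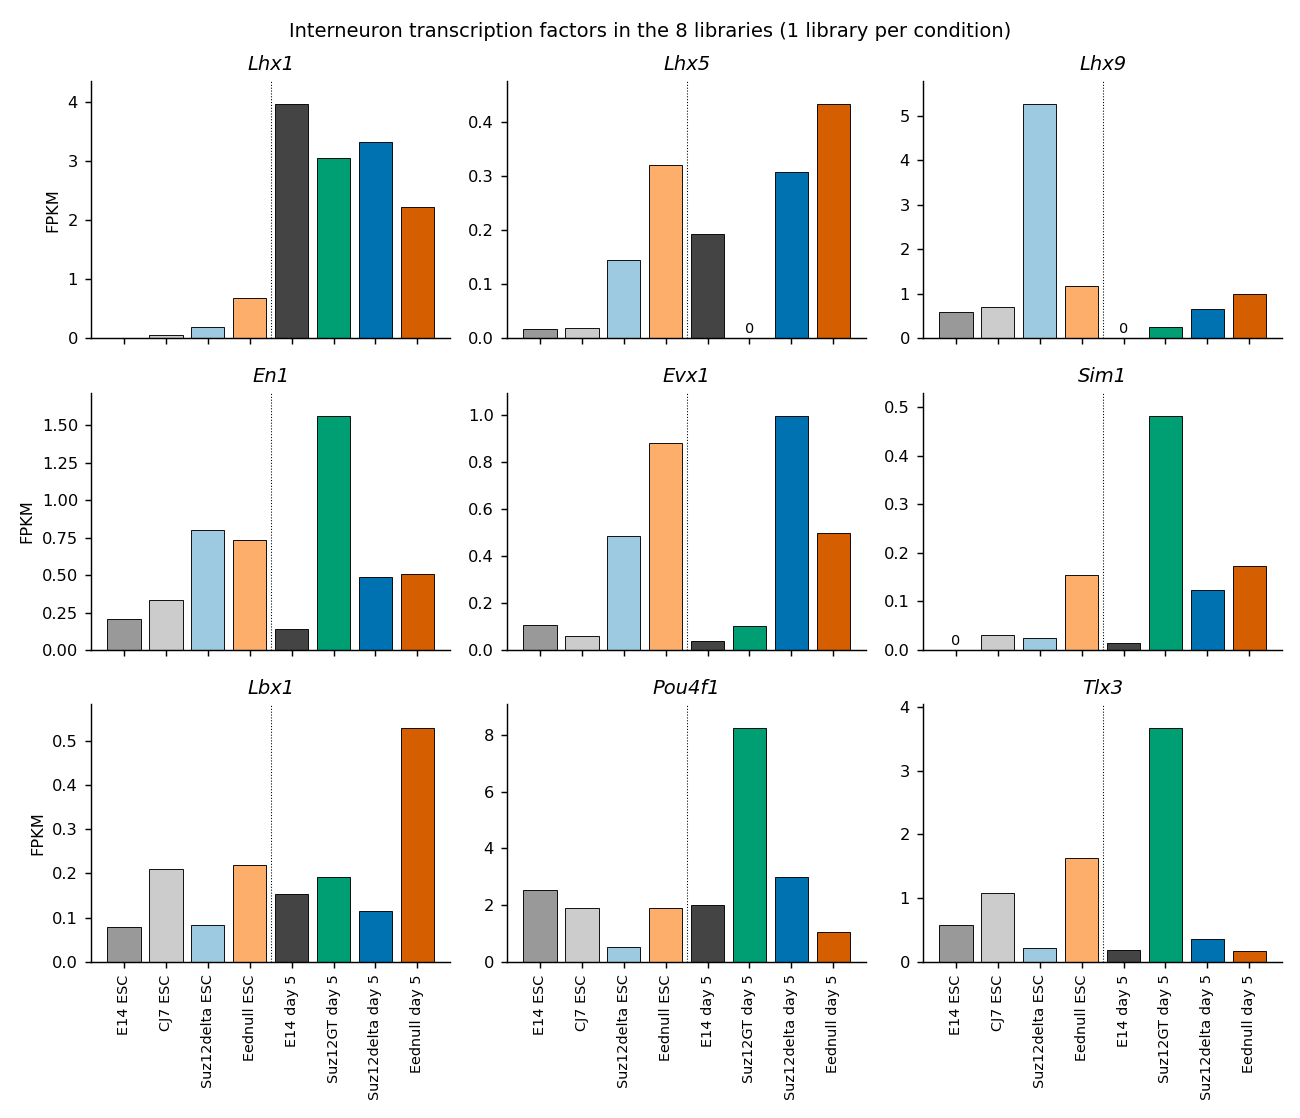
FPKM (vertical axis, a separate linear scale per gene) of the 9 factors in the 8 libraries, 1 bar per library, with ESCs left and day 5 cells right of the dotted line and 0 printed where a gene was listed at 0. Lhx1 is high in every day 5 library, Lhx9 in Suz12delta ESCs, and En1, Sim1, Pou4f1 and Tlx3 in Suz12GT cells at day 5.

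Over wild-type differentiation Lhx1 rose far more than any other of the 9 factors. Lhx1 encodes a LIM homeodomain protein of several interneuron classes, which also acts in some limb-innervating motor neurons, and its gene lies at chr11:84331479-84338923. It was at 0.0133 FPKM in E14 ESCs and at 3.96 FPKM in E14 cells at day 5, a log2 ratio of 5.16. Ratios here are log2 of FPKM plus 0.1, over genes at 0.1 FPKM or more in 1 of the libraries compared, and a factor is counted as higher or lower where it differed at least 2-fold on that scale, which understates the change of low genes. Its close relative Lhx5 (chr5:120881895-120891466) went from 0.0177 to 0.193 FPKM, a log2 ratio of 1.32.

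The other factors did not rise with Lhx1. Tlx3, a homeodomain factor of excitatory dorsal interneurons at chr11:33100752-33103588, was at 0.576 FPKM in E14 ESCs and 0.183 FPKM at day 5, a log2 ratio of -1.25. Lhx9, a LIM homeodomain factor of the most dorsal interneurons at chr1:140721763-140745153, was at 0.588 FPKM in ESCs and listed at 0 at day 5, so no fold is given. Pou4f1, a POU domain factor of dorsal interneurons at chr14:104862737-104867216, was at 2.53 and 1.99 FPKM, within 2-fold.

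En1, Evx1, Sim1 and Lbx1 were low in wild-type cells at both stages. En1 (chr1:122498995-122505873), of an inhibitory class that contacts motor neurons, was at 0.210 FPKM in ESCs and 0.139 at day 5. Evx1 (chr6:52263492-52268372), of a commissural class, was at 0.105 and 0.0380 FPKM. Sim1 (chr10:50615457-50708958), of the class next to the floor plate, was listed at 0 in ESCs and was at 0.0148 FPKM at day 5. Lbx1 (chr19:45307178-45310301), of several dorsal classes, was at 0.0785 and 0.153 FPKM.

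Of the 8 factors at 0.1 FPKM or more in E14 ESCs or E14 day 5 cells (all but Sim1), 2 were higher at day 5 and 2 lower, beside 18.3% of 21563 genes higher and 25.8% lower. These shares are near those of all genes, and the median log2 ratio of the factors was -0.35, beside -0.20 over all genes. In the same libraries 9 of 9 motor neuron genes were higher at day 5 (median log2 ratio 6.20), as were 7 of 8 pan-neuronal genes.

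In ESCs, Evx1 and Lhx5 were the factors at least 2-fold above both wild-type lines in both mutants. Evx1 was at 0.105 FPKM in E14, 0.0606 in CJ7, 0.486 in Suz12delta and 0.882 in Eednull ESCs. Its log2 ratios to E14 were 1.51 in Suz12delta and 2.26 in Eednull ESCs, and those to CJ7 were 1.87 and 2.61. The mutant libraries thus lay above both wild-type libraries, which differed from each other by -0.35. Evx1 shares 1335 bases with 5730457N03Rik, an antisense gene at chr6:52258383-52264826, which was at 0.0225 FPKM in E14, 0.0877 in CJ7, 0.264 in Suz12delta and 0.444 in Eednull ESCs. The deposited locus of Evx1, chr6:52258383-52268372, spans the whole of that antisense gene. Whether the libraries kept strand is not given in the sources used here, so reads of the shared bases cannot be told apart. How reads of the wider locus were shared out is not known either, so the Evx1 values are uncertain.

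Lhx5 was at 0.0177 FPKM in E14, 0.0195 in CJ7, 0.145 in Suz12delta and 0.320 in Eednull ESCs. The wild-type lines differed by 0.02 on the log2 scale. Suz12delta was above them by 1.06 (E14) and 1.04 (CJ7), and Eednull by 1.84 and 1.81.

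Lhx1 was highest in Eednull ESCs. It was at 0.0133 FPKM in E14, 0.0556 in CJ7, 0.187 in Suz12delta and 0.680 in Eednull ESCs. In Eednull the log2 ratio was 2.78 to E14 and 2.33 to CJ7. In Suz12delta it was 1.34 to E14 and 0.88 to CJ7, so the latter was within 2-fold. Even the Eednull level was below every day 5 library, the lowest of which was 2.22 FPKM.

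Lhx9 was highest in Suz12delta ESCs. It was at 0.588 FPKM in E14, 0.711 in CJ7, 5.26 in Suz12delta and 1.17 in Eednull ESCs, which put Suz12delta above every other library of the series. Its log2 ratio in Suz12delta was 2.96 to E14 and 2.72 to CJ7, whereas in Eednull it was 0.88 and 0.64. In the same Suz12delta library 11 of 12 fibroblast genes were at least 2-fold higher than in E14, as were 5 of 12 in Eednull and 3 of 12 in CJ7 ESCs. The part of these in the level of Lhx9 was not tested.

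En1 was at 0.210 FPKM in E14, 0.335 in CJ7, 0.798 in Suz12delta and 0.737 in Eednull ESCs. Both mutants were above both wild-type lines, by log2 ratios of 1.53 and 1.43 to E14 and of 1.05 and 0.94 to CJ7, so that 1 of these 4 ratios was within 2-fold. Sim1 was listed at 0 in E14 and was at 0.0301 FPKM in CJ7, 0.0238 in Suz12delta and 0.155 in Eednull ESCs, where its log2 ratio to CJ7 was 0.97. Lbx1 was at 0.0785 FPKM in E14, 0.211 in CJ7, 0.0829 in Suz12delta and 0.219 in Eednull ESCs, so that each mutant matched 1 of the wild-type lines and showed no rise beyond the difference between those lines.

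Pou4f1 and Tlx3, the factors that peripheral sensory neurons share, were lower than in E14 in Suz12delta ESCs. Pou4f1 was at 2.53 FPKM in E14, 1.88 in CJ7, 0.506 in Suz12delta and 1.89 in Eednull ESCs. Suz12delta alone was low, with log2 ratios of -2.12 to E14 and -1.71 to CJ7, and Eednull was level with CJ7 at 0.00. Tlx3 was at 0.576 FPKM in E14, 1.08 in CJ7, 0.218 in Suz12delta and 1.62 in Eednull ESCs. Suz12delta was again lowest, with ratios of -1.09 and -1.90, and Eednull was above E14 by 1.35 but above CJ7 by only 0.54. When the libraries were scaled to the same 75th percentile, the Suz12delta ratio of Tlx3 to E14 was -0.81 and no longer 2-fold.

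Over the 7 factors that could be compared in Suz12delta ESCs (not Sim1 or Lbx1), 5 were higher than in E14 and 2 lower, beside 18.0% of 21980 genes higher and 22.8% lower. Their median log2 ratio was 1.34, beside -0.28 over all genes. With the libraries scaled, 5 were higher and 1 lower, and 62.7% of the genes called were higher in place of 44.1%, as the median of all genes moved to 0.07. In Eednull ESCs 6 of 9 factors were higher and 0 lower, beside 22.4% and 11.9% of 24280 genes, with medians of 1.35 and 0.04. Of these 6, Lhx1 (0.0133 FPKM), Lhx5 (0.0177 FPKM) and Sim1 (listed at 0) were below 0.1 FPKM in E14, as was Lbx1 (0.0785 FPKM). These factors entered through Eednull alone and could not have been called lower. Lhx1 and Lhx5 entered the Suz12delta count, and the counts against both wild-type lines given below, in the same way through the mutant. With CJ7 as the wild type 3 were higher, and the share of all genes against CJ7 alone was not computed. The wild-type lines themselves gave 0 of 6 factors higher and 0 lower in CJ7 than in E14 (Lhx1, Lhx5 and Sim1 were below 0.1 FPKM in both), beside 15.7% and 14.7% of 23141 genes. Against both wild-type lines at once, 4 of 8 factors were higher in Suz12delta (Lhx5, Lhx9, En1 and Evx1), beside 11.9% of 24347 genes, and 3 of 9 in Eednull (Lhx1, Lhx5 and Evx1), beside 12.8% of 25925 genes. Since these levels were low, a pseudocount of 1 left 1 and 0 of them.

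**Figure D3:**
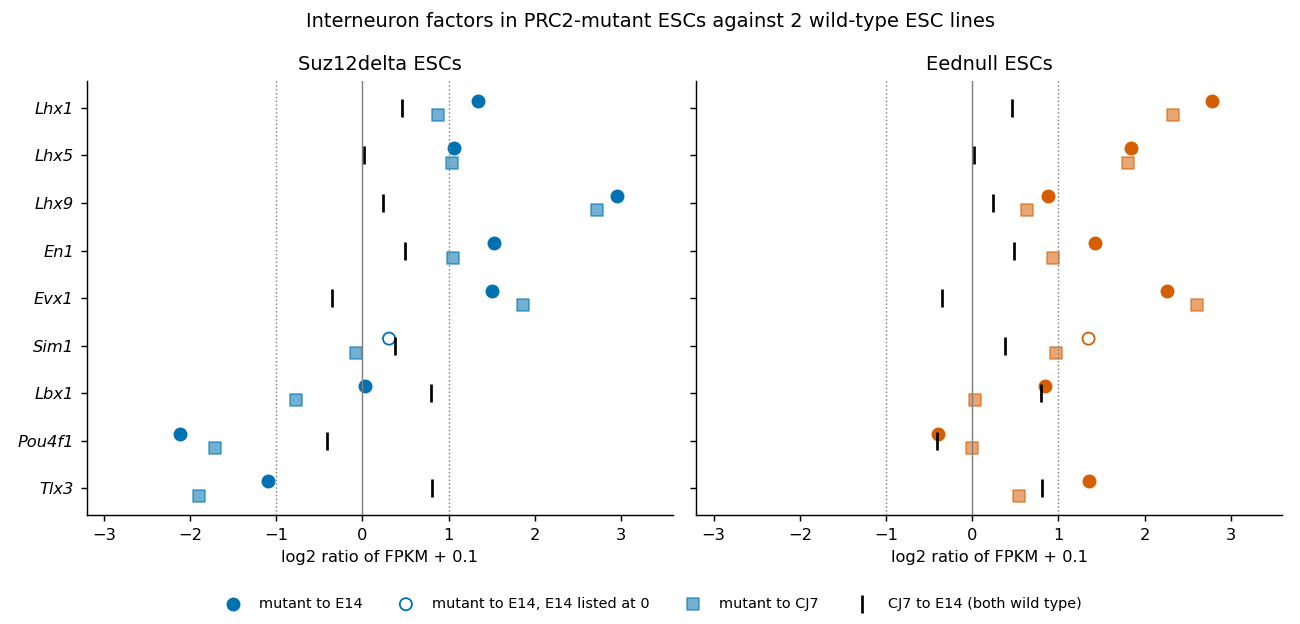
Log2 ratio of FPKM plus 0.1 (horizontal axis) for the 9 factors in Suz12delta (left) and Eednull ESCs (right), with circles for the ratio to E14 (open where E14 was listed at 0), squares for the ratio to CJ7, bars for CJ7 to E14, and dotted lines at 2-fold. Evx1 and Lhx5 lie beyond 2-fold against both wild-type lines in both mutants, while Pou4f1 lies at -2.12 and -1.71 in Suz12delta and near 0 in Eednull.

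At day 5 the Suz12GT cells held the highest En1, Sim1, Pou4f1 and Tlx3 of all 8 libraries. Tlx3 was at 0.183 FPKM in E14, 3.67 in Suz12GT, 0.352 in Suz12delta and 0.171 in Eednull cells. Suz12GT alone was high, with a log2 ratio of 3.74 to E14, 3.06 to Suz12delta and 3.80 to Eednull. Pou4f1 was at 1.99 FPKM in E14, 8.26 in Suz12GT, 2.98 in Suz12delta and 1.04 in Eednull cells. On the FPKM plus 0.1 scale it was 3.99-fold higher in Suz12GT than in E14, while log2 ratios of 0.56 in Suz12delta and -0.88 in Eednull lay on either side of E14.

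En1 was at 0.139 FPKM in E14, 1.56 in Suz12GT, 0.485 in Suz12delta and 0.509 in Eednull cells. All 3 mutants were above E14, by log2 ratios of 2.79, 1.29 and 1.35, and Suz12GT was above the nearer of the other mutants, Eednull, by 1.44. Sim1 was at 0.0148 FPKM in E14, 0.482 in Suz12GT, 0.123 in Suz12delta and 0.174 in Eednull cells. It too was above E14 in all 3, by 2.34, 0.96 and 1.25, of which the middle value was within 2-fold.

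Some other neuronal genes were also high in the Suz12GT library, and Slc17a6 and Snap25 are named here after their values were seen. The transmitter list that holds Slc17a6 had 2 of 6 genes higher and 1 lower in Suz12GT than in E14. Slc17a6, a glutamate transporter of excitatory neurons, was at 0.0116 FPKM in E14 and 1.63 FPKM in Suz12GT cells at day 5. Snap25, a protein of the synaptic release machinery, was at 9.14 and 43.9 FPKM. Of 9 peripheral sensory neuron genes compared, 5 were higher in Suz12GT and 0 lower, and the list of 10 summed to 28.0 FPKM in E14 and 47.2 FPKM in Suz12GT cells, with none listed at 0 in either. In Suz12delta and Eednull cells that list summed to 13.7 and 11.3 FPKM. The part of such neurons in the Suz12GT levels was not tested.

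In Suz12delta and Eednull cells at day 5, Evx1 and Lhx9 were high relative to E14. Evx1 was at 0.0380 FPKM in E14, 0.103 in Suz12GT, 0.996 in Suz12delta and 0.498 in Eednull cells. Its log2 ratio was 2.99 in Suz12delta and 2.12 in Eednull but 0.56 in Suz12GT, which lay below the other mutants by 2.43 and 1.56 on the log2 scale. The antisense gene 5730457N03Rik was at 0.0253 FPKM in E14, listed at 0 in Suz12GT, and at 0.566 and 0.281 FPKM in Suz12delta and Eednull. Lhx9 was listed at 0 in E14 and was at 0.252 FPKM in Suz12GT, 0.669 in Suz12delta and 0.987 in Eednull cells. In these libraries the 12 fibroblast genes summed to 16.3, 37.6, 179 and 102 FPKM, with Lum and Prrx1 listed at 0 in E14 and none in the mutants, and 10, 12 and 12 of the 12 were higher than in E14. Their part in the levels of Lhx9 was not tested.

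Lhx1 was the factor with a similar level in all day 5 libraries. It was at 3.96 FPKM in E14, 3.05 in Suz12GT, 3.32 in Suz12delta and 2.22 in Eednull cells. The mutants were lower by log2 ratios of -0.37, -0.25 and -0.80, each within 2-fold. Lhx5 was at 0.193 FPKM in E14, listed at 0 in Suz12GT, and at 0.308 and 0.432 FPKM in Suz12delta and Eednull cells. Lbx1 was at 0.153 FPKM in E14, 0.191 in Suz12GT, 0.115 in Suz12delta and 0.530 in Eednull cells, so only Eednull was apart, with a ratio of 1.32.

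All 9 factors could be compared at day 5. In Suz12GT 5 were higher than in E14 and 1 lower, beside 16.8% of 20840 genes higher and 4.40% lower. The median log2 ratio of the factors was 1.81, beside 0.13 over all genes. In Suz12delta 3 were higher and 0 lower, beside 26.6% and 9.52% of 22069 genes, which is close to the share of all genes, with medians of 0.68 and 0.26. In Eednull 5 were higher and 0 lower, beside 21.6% and 11.3% of 21442 genes, with medians of 1.25 and 0.08. Each of these counts includes Lhx9, which was listed at 0 in E14. Without factors at 0 in either library the counts were 4, 2 and 4 higher and 0 lower. Sim1 (0.0148 FPKM), counted in Suz12GT and Eednull, was also below 0.1 FPKM in E14. So was Evx1 (0.0380 FPKM), counted in Suz12delta and Eednull. Lhx9, Sim1 and Evx1 thus entered through the mutants alone and could not have been called lower. In Suz12GT, Lhx5 entered through E14 alone and could not have been called higher. The comparisons share the E14 library. With a pseudocount of 1, En1, Pou4f1 and Tlx3 remained higher in Suz12GT and no factor was higher in Suz12delta or Eednull.

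**Figure D4:**
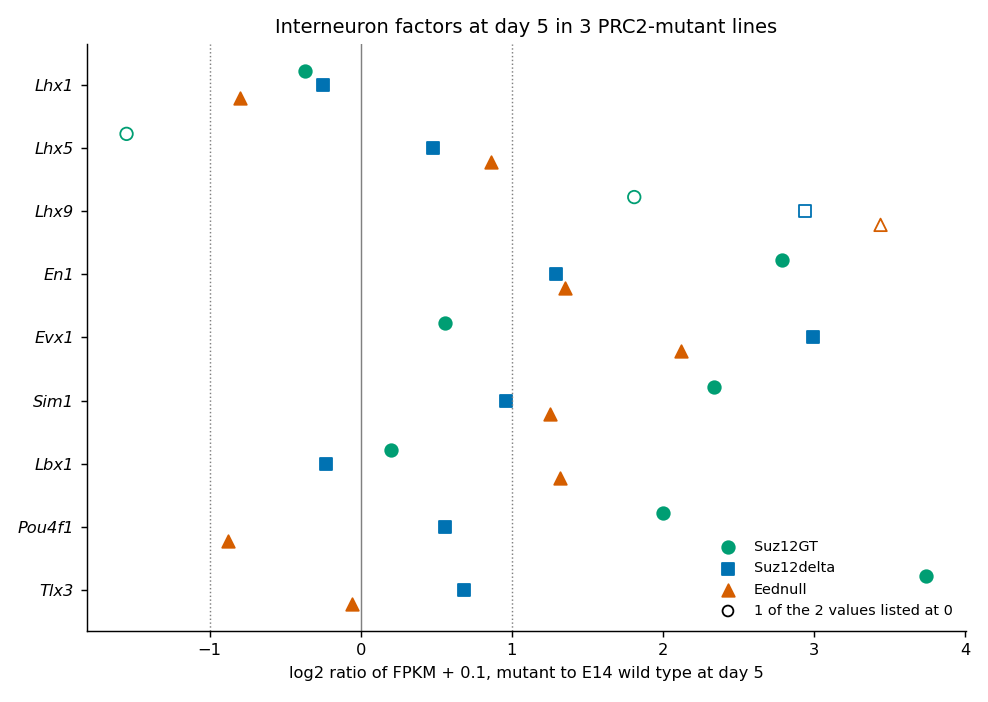
Log2 ratio of FPKM plus 0.1 to E14 at day 5 (horizontal axis) for the 9 factors in Suz12GT (circles), Suz12delta (squares) and Eednull cells (triangles), open where 1 of the values was listed at 0, with dotted lines at 2-fold. Tlx3 at 3.74, En1 at 2.79, Sim1 at 2.34 and Pou4f1 are highest in Suz12GT, Evx1 is highest in Suz12delta at 2.99, and Lhx1 lies within 2-fold of E14 in all 3.

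Within each null line, Lhx1 was again the factor that rose over differentiation. From ESCs to day 5 it went from 0.187 to 3.32 FPKM in Suz12delta, a log2 ratio of 3.57, and from 0.680 to 2.22 FPKM in Eednull, a ratio of 1.58. Beside the ratio of 5.16 in E14, the ESC level it started from was lowest in E14 and highest in Eednull. Pou4f1 also rose in Suz12delta, from 0.506 to 2.98 FPKM (log2 ratio 2.34), but not in Eednull, where it was at 1.89 and 1.04 FPKM. Lhx9 fell in Suz12delta from 5.26 to 0.669 FPKM (-2.80), and Tlx3 in Eednull from 1.62 to 0.171 FPKM (-2.67). The other factors were within 2-fold between ESCs and day 5 in both null lines.

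In Suz12delta 2 of 9 factors were higher at day 5 than in ESCs and 1 lower, beside 26.9% and 12.6% of 22681 genes. In Eednull 1 was higher and 1 lower, beside 18.4% and 24.8% of 24638 genes. These shares are near those of all genes. The medians were 0.73 beside 0.43 over all genes in Suz12delta, and -0.22 beside -0.08 in Eednull. With scaled libraries, 50.7% in place of 68.1% of the genes called over Suz12delta differentiation were higher, and the counts of factors were unchanged.

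The level of Lhx1 at day 5 did not go with neuronal genes. The 9 pan-neuronal genes in the table summed to 453 FPKM in E14, 863 in Suz12GT, 11.9 in Suz12delta and 11.5 in Eednull cells at day 5, with Tubb3 listed at 0 throughout. All 8 that could be compared were lower than in E14 in each null line, with median log2 ratios of -4.97 and -4.98, and in Suz12GT 4 were higher and 0 lower. Motor neuron genes summed to 112, 120, 14.4 and 11.6 FPKM in the same order, and 8 and 9 of 9 were lower in Suz12delta and Eednull. So the labelled cell type was marked in E14 and Suz12GT cells, while these markers were low in the null lines. Lhx3 and Isl1, LIM factors of motor neurons and of some interneurons, were at 25.8 and 18.1 FPKM in E14 and at 0.356 and 4.43 FPKM in Eednull cells. Olig2, a motor neuron progenitor factor, was at 22.1 FPKM in E14 and 0.0455 FPKM in Eednull cells, and Mnx1, a motor neuron homeodomain factor, at 16.7 and 2.44 FPKM.

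Progenitor and proneural factors, which act upstream of the interneuron classes, were also mostly lower in the null lines. In Suz12delta 11 of the 16 compared were lower than in E14 at day 5 and 4 higher, and in Eednull 11 of 15 were lower and 4 higher, while in Suz12GT 5 of 12 were lower and 0 higher. Neurog2, a proneural factor, was at 20.7 FPKM in E14, 7.89 in Suz12GT, 0.0450 in Suz12delta and 0.0398 in Eednull cells. Its relative Neurog1 was at 11.9, 4.43, 0.0430 and 0.00929 FPKM. Pax6, a progenitor factor, was at 21.9, 8.18, 7.24 and 9.35 FPKM, and Nkx6-1 was at 13.9, 13.8, 1.90 and 1.56 FPKM.

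A list of 24 further interneuron factors moved in both directions. At day 5, 10 of 20 were higher and 6 lower in Suz12delta than in E14, 9 of 19 were higher and 7 lower in Eednull, and 6 of 19 were higher and 5 lower in Suz12GT. Wt1 marks a small interneuron class but also kidney and gonad. It was at 0.327 FPKM in E14, 1.38 in Suz12GT, 28.8 in Suz12delta and 36.3 in Eednull cells. Gata3, of a ventral inhibitory class and of several tissues outside the nervous system, was at 0.118, 0.772, 17.8 and 15.7 FPKM. In ESCs 8 of 17 were higher and 3 lower in Suz12delta, and 14 of 22 were higher and 2 lower in Eednull, than in E14.

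Genes of other tissues were high relative to E14 in the null lines at day 5, as Evx1 and Lhx9 were, whereas Lhx1 was within 2-fold of E14. Osr1, a gene of intermediate mesoderm named here after its values were seen, was at 0.127 FPKM in E14, 0.410 in Suz12GT, 15.2 in Suz12delta and 11.8 in Eednull cells, and Pax2, of intermediate mesoderm and of inhibitory interneurons, was at 0.555 FPKM in E14, listed at 0 in Suz12GT, and at 5.78 and 8.74 FPKM in Suz12delta and Eednull. Of the primitive streak and mesoderm list 7 of 7 were higher in each null line and 3 of 4 in Suz12GT. Of the limb, gonad and muscle list 8 of 8 were higher in Suz12delta, 7 of 8 in Eednull and 5 of 6 in Suz12GT. Of the endoderm list 10 of 10 were higher in all 3 mutants. Over all genes 26.6% were higher in Suz12delta, 21.6% in Eednull and 16.8% in Suz12GT. The medians of these 3 lists in E14 were 0.0138, 0.0852 and 0.0474 FPKM, below the minimum of 0.1 FPKM. Genes below it, here and in the pluripotency list, entered through a mutant alone and could not have been called lower. The summed level of the mesoderm list was 0.710 FPKM in E14, 4.40 in Suz12GT, 26.3 in Suz12delta and 22.7 in Eednull, with Tbx6 and Msgn1 listed at 0 in all 4 libraries. The limb, gonad and muscle list summed to 1.41, 8.80, 46.0 and 52.3 FPKM, with Myf5 listed at 0 in all 4, and the endoderm list to 3.93, 32.5, 54.2 and 44.3 FPKM, with Gata4 and Afp listed at 0 in E14 only. Of the pluripotency list 8 of 8 were higher than in E14 in Suz12GT and in Suz12delta, and 5 of 7 in Eednull. Its highest member in the mutants was Tbx3, which is not particular to ESCs, at 0.0815 FPKM in E14, 7.13 in Suz12GT, 14.5 in Suz12delta and 10.4 in Eednull, while Nanog was listed at 0 in E14 and Eednull. Lhx1, Lhx9, Evx1 and Lbx1 are known in some of these tissues too, and the part of such cells in their levels was not tested.

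**Figure D5:**
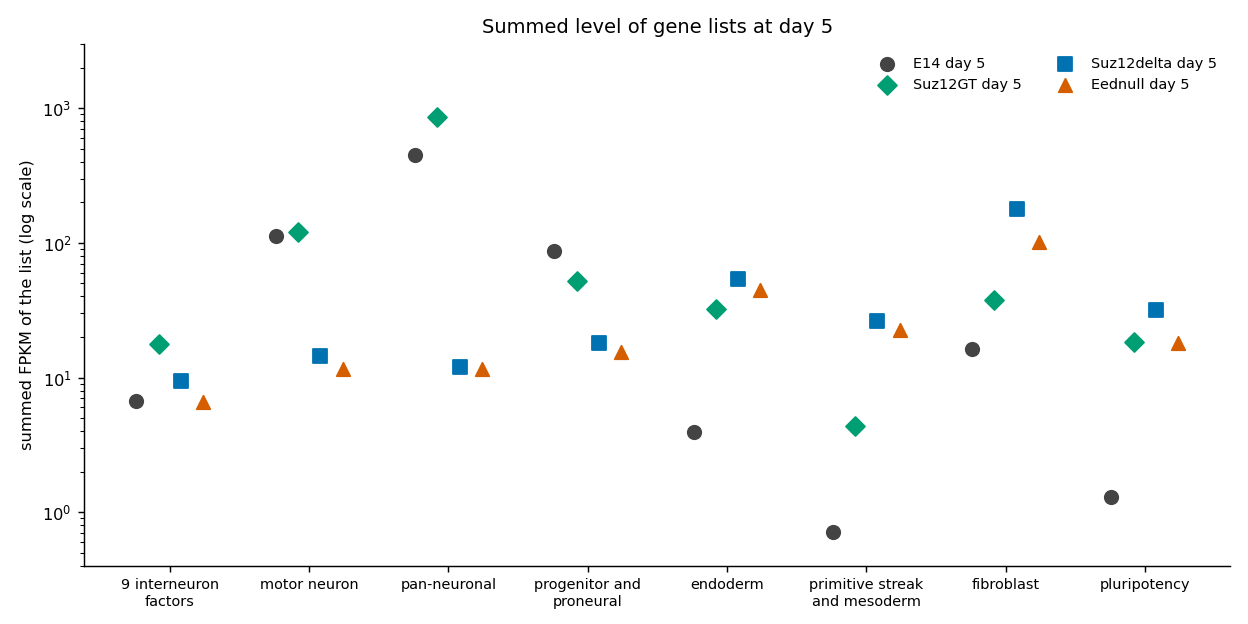
Summed FPKM (vertical axis, log scale) of 8 gene lists in the 4 day 5 libraries. Pan-neuronal genes are at 453 and 863 FPKM in E14 and Suz12GT and at 11.9 and 11.5 FPKM in the null lines, whereas the 9 interneuron factors sum to between 6.57 and 17.6 FPKM in all 4.

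For the 5 factors that reached 1 FPKM, the genes with the most similar pattern were found by Pearson correlation of log2 FPKM plus 0.1 across the 8 libraries, among 18537 genes at 1 FPKM or more somewhere. For Lhx1 they were Vstm2b (r = 0.992), Tspan3 (0.991) and Meis1 (0.990), and 542 genes had an r of 0.9 or more, so a split between ESCs and day 5 cells is a common pattern. For Lhx9 they were Adamtsl5 (0.989), Nfix (0.987) and Ccnd1 (0.985), with 285 genes at 0.9 or more. Patterns like those of the factors that were high in Suz12GT were rarer, with 18 genes for Pou4f1, 14 for En1 and 1 for Tlx3. They were led by Pnma2 (0.977), 2310035C23Rik (0.965) and Ccdc92 (0.947) for Pou4f1, by Dbc1 (0.968), 1700047I17Rik2 (0.957) and Fam177a (0.957) for En1, and by Palm3 (0.931), Jph4 (0.890) and Arhgdig (0.886) for Tlx3. All points share their libraries across genes, so these values describe the 8 libraries only.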

How the data were processed

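RNA-seq of 8 libraries was analysed, 1 per condition. The authors aligned reads with TopHat 1.3.2 and Bowtie 0.12.7, estimated the deposited FPKM values per gene with Cufflinks 1.2.1 and Cuffdiff with Ensembl gene models on NCBI build 37, and corrected for sequence bias and for reads that map to several places. That correction, which shares reads among near-identical genes, and the length scaling both affect low values. Values were used as deposited.

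Log2 ratios were taken after adding 0.1 FPKM to each value, for genes that reached 0.1 FPKM on either side, and a 2-fold difference counted as higher or lower. A gene below 0.1 FPKM on 1 side entered through the other side alone and could be called in that direction only. This applies to the factors, to the lists and to the shares over all genes. With 1 library per condition no test is possible and no p-value is given. Reads per library are unknown: at most 1.01% of low genes shared the commonest ratio to E14 ESCs, so no step of single reads was seen and no interval is given. The corrections named above can blur such steps, so a low value may still rest on very few reads. The calculation of ratios was run on E14 ESC values, with changes of known size put into genes at 1 FPKM or more. This checks the code only and leaves out lower values, where most levels of the factors lay.

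The 9 factors and the gene lists were chosen with earlier results of these data known. Named genes were the 9 factors, the highest genes of the first 3 other lists, and for each factor at 1 FPKM or more the 3 genes of most similar pattern. Suz12 was named as a targeted gene, and Tubb3, Slc17a6, Slc32a1, Gad1, Snap25, Osr1, Pax2, Tbx3, Nanog, En2, Otx2 and the genes given as listed at 0 were named outside this rule, after their values were seen. Lists covered further interneuron factors (24 genes in the table), progenitor and proneural (19), motor neuron (9 of 10), pan-neuronal (9 of 10), transmitter (7), primitive streak and mesoderm (10), endoderm (10), peripheral sensory (10), limb, gonad and muscle (10), midbrain and hindbrain (8), fibroblast (12), pluripotency (8) and PRC2 (5) genes. Slc18a3 and Map2 were not matched, and some genes stand in more than 1 list. Gene positions are from GENCODE vM1, which held 36104 of the 36808 identifiers. Alternatives were a pseudocount of 1 or 0.01, no minimum or one of 1 FPKM, libraries scaled to a common 75th percentile (over the 17842 genes that no library listed at 0), and CJ7 as the wild-type ESC. Python 3.11.15, NumPy 2.4.6, pandas 2.3.3 and Matplotlib 3.10.9 were used. ChIP and bisulfite data and a library of Suz12GT ESCs were not analysed here.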

Additional observations from a re-analysis of the deposited data

How the results depend on the processing

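Of 126 counts of factors higher or lower recomputed under the alternatives, 95 were within 1.5 times the value given and 31 moved further. Of 245 ratios of single factors under another pseudocount, scaling or wild-type ESC line, 203 stayed on their side of 2-fold, 31 fell within it and 11 passed it. None reversed, but a pseudocount cannot change the sign of a ratio. Only scaling and the other wild-type line could have reversed one. With a pseudocount of 1, wild-type differentiation had 1 factor higher and 0 lower, Suz12delta ESCs 1 higher and 1 lower, Eednull ESCs 0 higher, Suz12GT at day 5 3 higher and 0 lower, Suz12delta and Eednull at day 5 0 higher, Eednull differentiation 0 higher, and 1 (Suz12delta) and 0 (Eednull) were above both wild-type ESC lines. With a pseudocount of 0.01, CJ7 had 1 factor above E14, Suz12delta differentiation 5 higher, Eednull differentiation 2 higher, and Eednull ESCs 5 above both wild-type lines. With a minimum of 1 FPKM, which leaves 2 to 4 factors to compare in these, wild-type differentiation had 1 higher and 0 lower, Suz12delta ESCs 1 higher and 1 lower, Eednull ESCs 1 higher, Suz12GT at day 5 3 higher and 0 lower, Suz12delta and Eednull at day 5 0 higher, and 1 and 0 were above both wild-type lines. Scaling left 1 factor lower in Suz12delta ESCs, and CJ7 as the wild type left 3 higher in Eednull ESCs. Among genes above 0 in both libraries, an alternative chosen after seeing the data, 1 factor was lower over wild-type differentiation and 0 in Suz12GT at day 5. Using no minimum moved no count. Scaling shifted the median log2 ratio of all genes from -0.20 to -0.06 over wild-type differentiation, from -0.28 to 0.07 in Suz12delta ESCs, from 0.04 to 0.20 in Eednull ESCs, from -0.12 to 0.09 in CJ7, from 0.26 to 0.11 in Suz12delta at day 5 and from 0.43 to 0.06 over Suz12delta differentiation. Without read counts, a level under 1 FPKM has no known counting error. No paired analysis was possible because each condition had 1 library.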

Other observations

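Genes that make or carry the transmitters of interneurons were low at day 5. Of the 7 on the list, 0 reached 1 FPKM in E14, Suz12delta or Eednull cells at day 5 and 1 did in Suz12GT cells. Relative to E14 at day 5, 2 of 6 were higher and 1 lower in Suz12GT, 2 of 5 higher and 0 lower in Suz12delta, and 3 of 5 higher and 1 lower in Eednull. Their sum at day 5 was 0.772 FPKM in E14, 2.97 in Suz12GT, 1.57 in Suz12delta and 1.34 in Eednull cells. Slc32a1, the vesicular transporter of GABA and glycine, was listed at 0 in E14 and Suz12GT cells. In ESCs the sum was 8.13 FPKM in E14, 2.80 in CJ7, 1.80 in Suz12delta and 3.36 in Eednull, and most of the E14 sum was Gad1, a GABA-making enzyme, at 7.13 FPKM. These genes were named after their values were seen.

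The midbrain and hindbrain list, whose territory also uses En1, moved in both directions at day 5. Relative to E14, 2 of 6 were higher and 2 lower in Suz12GT (median log2 ratio -0.13), 3 of 7 higher and 3 lower in Suz12delta (0.02), and 2 of 8 higher and 2 lower in Eednull (0.68). En2, the paralog of En1, was at 0.152 FPKM in E14, 1.97 in Suz12GT, 0.789 in Suz12delta and 0.756 in Eednull cells. Otx2, a forebrain and midbrain factor, was listed at 0 in E14 and Suz12GT cells and was at 0.488 and 0.402 FPKM in Suz12delta and Eednull cells. En2 and Otx2 were likewise named after their values were seen.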
